A study of Drosophila melanogaster with 18 samples.

Results

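The cell cycle and DNA replication genes described here are 40 genes that were listed by name, with earlier results of these data known, and that were all found among the 17753 genes of the exon count tables. They hold 199 of the 87508 exon records in each table, where an exon record is an exon of an annotated transcript. The data are RNA-seq counts from whole Drosophila pupae at 48 hr after puparium formation (APF), the middle of metamorphosis. Translating ribosome affinity purification (TRAP) pulled down a GFP-tagged ribosomal protein, GFP::RpL10A, that fru P1-Gal4 drives in the cells using the P1 promoter of fruitless, and total mRNA came from those lysates as well. The groups were male TRAP (n = 5), male total mRNA (n = 5), female TRAP (n = 4) and female total mRNA (n = 4). Pupae of every group, control fractions included, were w and carried 1 copy each of the fru P1-Gal4 driver, the UAS-GFP::RpL10A reporter and a UAS-Gal4 transgene, the UAS constructs being marked with w+mC. A sample pooled many sex-sorted whole pupae, so the total mRNA includes gonads and all other tissues. The Gal4 driver decides which cells carry the tagged ribosomal protein. How much RNA of other cells was carried over into the TRAP fraction was not measured.

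Cells copy their DNA once per cycle and then divide it. Origin recognition proteins and the loading factor Double parked (dup) place the MCM helicase on DNA, geminin blocks reloading, and E2f1, Cyclin E and Cdk2 start S phase. String (stg, the Cdc25 phosphatase) activates Cdk1 with its mitotic cyclins, Polo and Aurora kinases build the spindle, the checkpoint holds the anaphase promoting complex until chromosomes are attached, and loss of securin then frees separase. Most neurons of a mid-pupal nervous system no longer divide, whereas the male germline holds mitotic and meiotic cells at this stage.

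The total count per library was between 24901633 and 67491630. Levels are given as RPM, the reads scaled to a fixed gene-level total, and differences as log2 fold changes from an edgeR quasi-likelihood F test fitted to all 18 libraries, with the false discovery rate (FDR, threshold 0.05) over 12251 genes. Each standard error (SE) was derived from that test, as the absolute log2 fold change divided by the square root of F, and is approximate. Of the 40 genes, 36 passed the filter of over 2 RPM in 60% of the libraries of any group. Orc1, Orc2, Orc6 and Mcm5 did not, and 6 (Orc5, CycB3, aurA, borr, mad2 and pim) passed through male libraries alone, so that a sex difference in them was built into their passing and their values between the sexes are a description. In every group 29 passed. With TMM scaling the median log2 difference of all genes was 0.00 for male TRAP against male total mRNA, -0.27 for female TRAP against female total mRNA, -0.15 for male against female TRAP, -0.64 for male against female total mRNA and 0.49 for the sex difference in TRAP enrichment, and members are read against these medians. With RLE size factors the same medians were -0.31, -0.14, -0.02, -0.06 and 0.04. In male TRAP 15 of 15 neuron markers were higher than in total mRNA, and in female TRAP 13 of 15 were, but fat body markers rose more (median log2 difference of 3.65 in males and 4.32 in females). Female TRAP replicate 2 stood apart from the other female TRAP libraries in several members and in the neuroblast genes ase (10.8 RPM against 1.39 to 3.48) and mira (28.9 RPM against 4.26 to 8.15). It also did in the neuron genes elav (662 RPM against 261 to 329) and onecut (94.4 RPM against 34.6 to 39.1). Other neuroblast list genes lay close to the other libraries, such as insc (7.16 RPM against 6.31 to 6.88) and pros (1480 RPM against 1060 to 1400). Male TRAP replicate 1 stood apart in sperm genes such as dj (3140 RPM against 534 to 1660).

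Most genes of mitosis were higher in males than in females. Of the 18 members of mitotic entry, the spindle checkpoint and passenger complex, and anaphase, 16 were higher in male total mRNA than in female total mRNA and 2 (stg and Bub3) were lower; in TRAP 15 were higher in males, and CycA, stg and Bub3 did not pass. Among the 12 mitotic members that passed the filter in every group, 10 were higher in male total mRNA, against 16.8% of all genes that passed in every group, and 9 in male TRAP, against 17.5%. With RLE size factors 16 and 15 of the 18 were higher and none was lower. Over all 36 tested members, 23 were higher in male total mRNA, against 32.7% of all genes, and 9 were lower, against 58% of all genes; the median was 0.67 for the tested members and -0.64 for all genes. In TRAP 19 were higher in males, against 32.9% of all genes, and 4 were lower, against 37.2%, with a median of 0.37 against -0.15. All 19 were also among the 23 of total mRNA. Of the 18 members with other roles, 7 were higher and 7 lower in male total mRNA, and 4 higher and 4 lower in male TRAP. With RLE size factors 26 of the 36 were higher and 5 lower in male total mRNA, which moves the higher share of the called members to 83.9%, against 71.9% with TMM. The median of all genes moved up as well, from -0.64 to -0.06 in total mRNA and from -0.15 to -0.02 in TRAP. In these whole-animal pools, more cells of a type and more RNA per cell cannot be told apart.

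The kinase gene polo (chr3L:20309654-20313466), whose product acts in spindle assembly and cytokinesis, had 156, 146, 165, 165 and 157 RPM in male total mRNA, against 7.84, 9.09, 7.88 and 7.92 RPM in female total mRNA. Its TRAP levels were 87.2, 58.7, 69.5, 81.6 and 49.6 RPM in males, against 31.7, 11.7, 6.91 and 10.7 RPM in females, of which replicate 2 was the highest. The groups did not overlap in either fraction. The log2 difference for polo was 3.85 ± 0.35 in total mRNA and 2.11 ± 0.32 in TRAP (SE), and per length it was the highest of the members in male total mRNA, at a mean of 52.9 RPKM.

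Aurora A and securin had the largest differences, but both passed the filter through male libraries alone. Aurora A (aurA, chr3R:11963124-11964826), the kinase that matures centrosomes, had 34.2, 39.8, 39, 41 and 41.1 RPM in male total mRNA, against 1.14, 2.15, 1.64 and 0.931 RPM in female total mRNA. It had 11.2, 12, 13.1, 11.8 and 10.3 RPM in male TRAP, against 2.66, 1.38, 0.808 and 1.29 RPM in female TRAP. The log2 differences of aurA were 4.29 ± 0.26 (SE) in total mRNA and 2.83 ± 0.24 (SE) in TRAP. Securin, pim (chr2L:10362989-10364092), which holds separase inactive until anaphase, had 25.7, 22.1, 21.1, 25.8 and 26.1 RPM in male total mRNA, against 1.8, 0.746, 0.774 and 1.03 RPM in female total mRNA. In TRAP pim had 16, 10.4, 13.5, 14.6 and 10.9 RPM in males, against 2.73, 1.96, 0.942 and 1.39 RPM in females. Its differences were 4.09 ± 0.29 in total mRNA and 2.80 ± 0.26 in TRAP (SE). In both genes the female libraries lay near or under the filter's minimum.

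**Figure D1:**
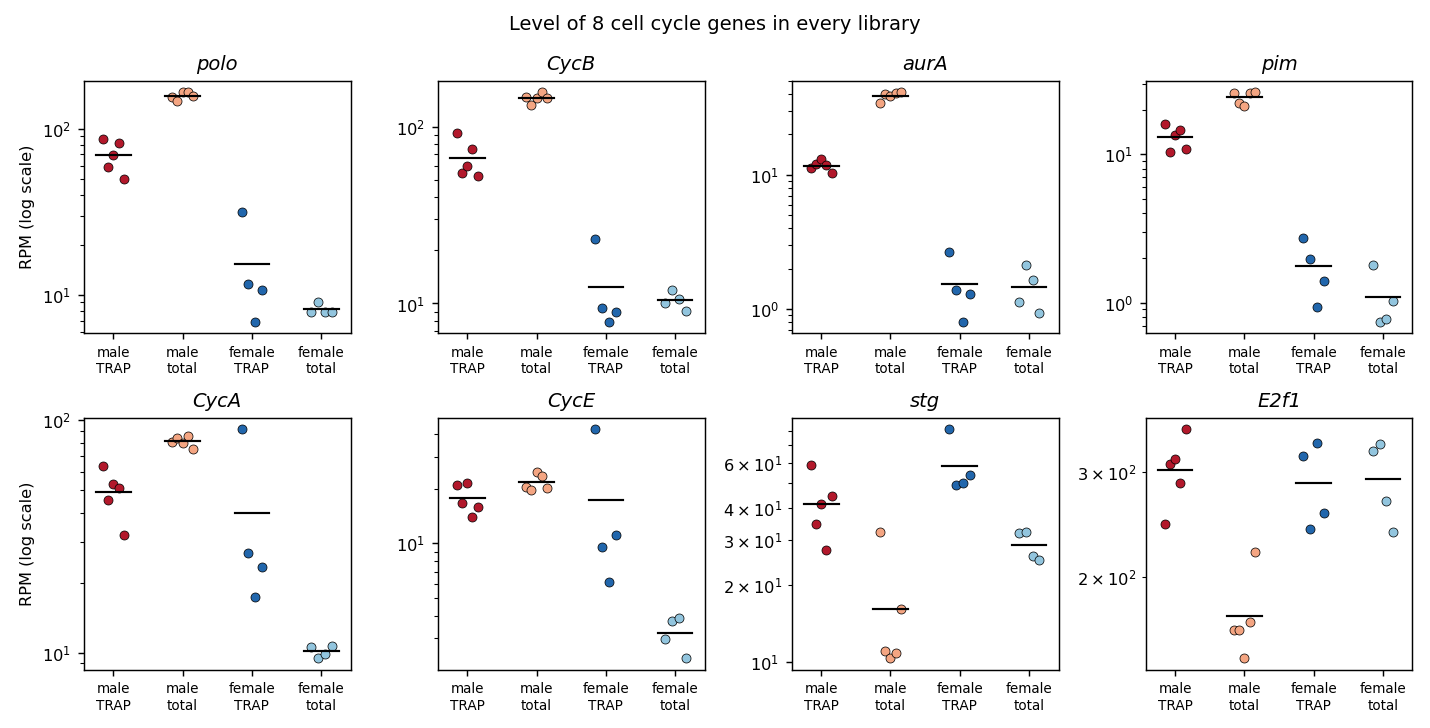
Level (RPM, log scale, each panel with its own axis) of 8 cell cycle genes in male TRAP, male total mRNA, female TRAP and female total mRNA; points are libraries and bars are group means. polo, CycB, aurA and pim were highest in male total mRNA, CycA and CycE had 1 female TRAP library (replicate 2) far above the others, and stg and E2f1 were higher in male TRAP than in most male total mRNA libraries.

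The checkpoint protein gene mad2, whose product delays anaphase, also passed through male libraries alone. It had 14.3, 9.87, 10.8, 11.7 and 9.31 RPM in male TRAP, against 2.39, 2.1, 0.942 and 1.45 RPM in female TRAP, a log2 difference of 2.61 ± 0.21 (SE). In total mRNA it had 22.6 to 25.4 RPM in males and 1.5 to 1.96 RPM in females, a difference of 3.38 ± 0.22 (SE). From the records that overlap no other gene, the TRAP difference was 1.88 for mad2 and 2 for aurA. The mitotic cyclin gene CycB differed by 3.38 ± 0.30 in total mRNA and 2.36 ± 0.28 in TRAP, and CycB3, which passed through males alone, by 3.51 ± 0.33 and 2.33 ± 0.31. Fizzy (fzy), the Cdc20 activator of the anaphase promoting complex, differed by 3.80 ± 0.33 in total mRNA and 2.11 ± 0.29 in TRAP. Its female total mRNA libraries, at 1.38, 2.38, 1.69 and 1.71 RPM, did not pass the filter. The passenger complex genes Incenp (2.33 ± 0.19 in total mRNA, 2.11 ± 0.19 in TRAP), borr (2.79 ± 0.30 and 1.13 ± 0.27) and aurB (1.05 ± 0.19 and 1.66 ± 0.19) were higher in males in both fractions (SE), borr having passed the filter through males alone. The gene thr, whose product is a binding partner of separase, was higher by 1.93 ± 0.28 in total mRNA and 1.40 ± 0.27 in TRAP. For the Cdh1 activator fzr the differences were 0.65 ± 0.12 and 0.55 ± 0.12. Cdk1, BubR1 and Bub1 were higher by 1.03 ± 0.16, 1.07 ± 0.18 and 0.63 ± 0.09 in total mRNA. The checkpoint gene Bub3 was the exception of its group, at -0.43 ± 0.12 in total mRNA, which turned to 0.15 with RLE size factors. In the test of single exon records (FDR under 0.2) the sign was also the other way. There 2 of its 2 tested records were called higher in male total mRNA (0.41 to 0.46).

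Male germline genes moved in the same direction as these members. All 19 of the 19 tested male germline markers were higher in males in both fractions. Of all genes, 32.7% were higher in total mRNA and 32.9% in TRAP. The median log2 differences of the markers were 5.39 in total mRNA and 5.15 in TRAP. They were listed as male germline genes, and several, such as aly, can and sa, were under 2 RPM in every female library. The direction of the markers was thus set by the choice and the filter, and their count is a description. Their summed level was 2100 to 7270 RPM in male TRAP and 4010 to 5300 RPM in male total mRNA, against 327 to 504 RPM in female TRAP and 122 to 246 RPM in female total mRNA, and none was at 0 in a whole group. The RNA-binding protein gene bol made up most of the female sums, at 278 to 458 RPM in female TRAP and 106 to 170 RPM in female total mRNA. The other 18 summed to 1630 to 6720 RPM in male TRAP and 3460 to 4770 RPM in male total mRNA, against 24 to 49.5 RPM in female TRAP and 16.1 to 81.5 RPM in female total mRNA. Their part in the members' difference was not tested. The germline tubulin gene betaTub85D stood at 1010 to 1100 RPM in male total mRNA and at 10.7, 15.3 and 11.1 RPM in female total mRNA replicates 2, 3 and 4, against 0.931 RPM in replicate 5. In that replicate 5 polo stood at 7.92 RPM, within its female range. Without replicates 2, 3 and 4, a choice made after seeing the data, the polo difference was 4.04. That fit leaves 1 female total mRNA library, whose spread cannot be measured.

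**Figure D2:**
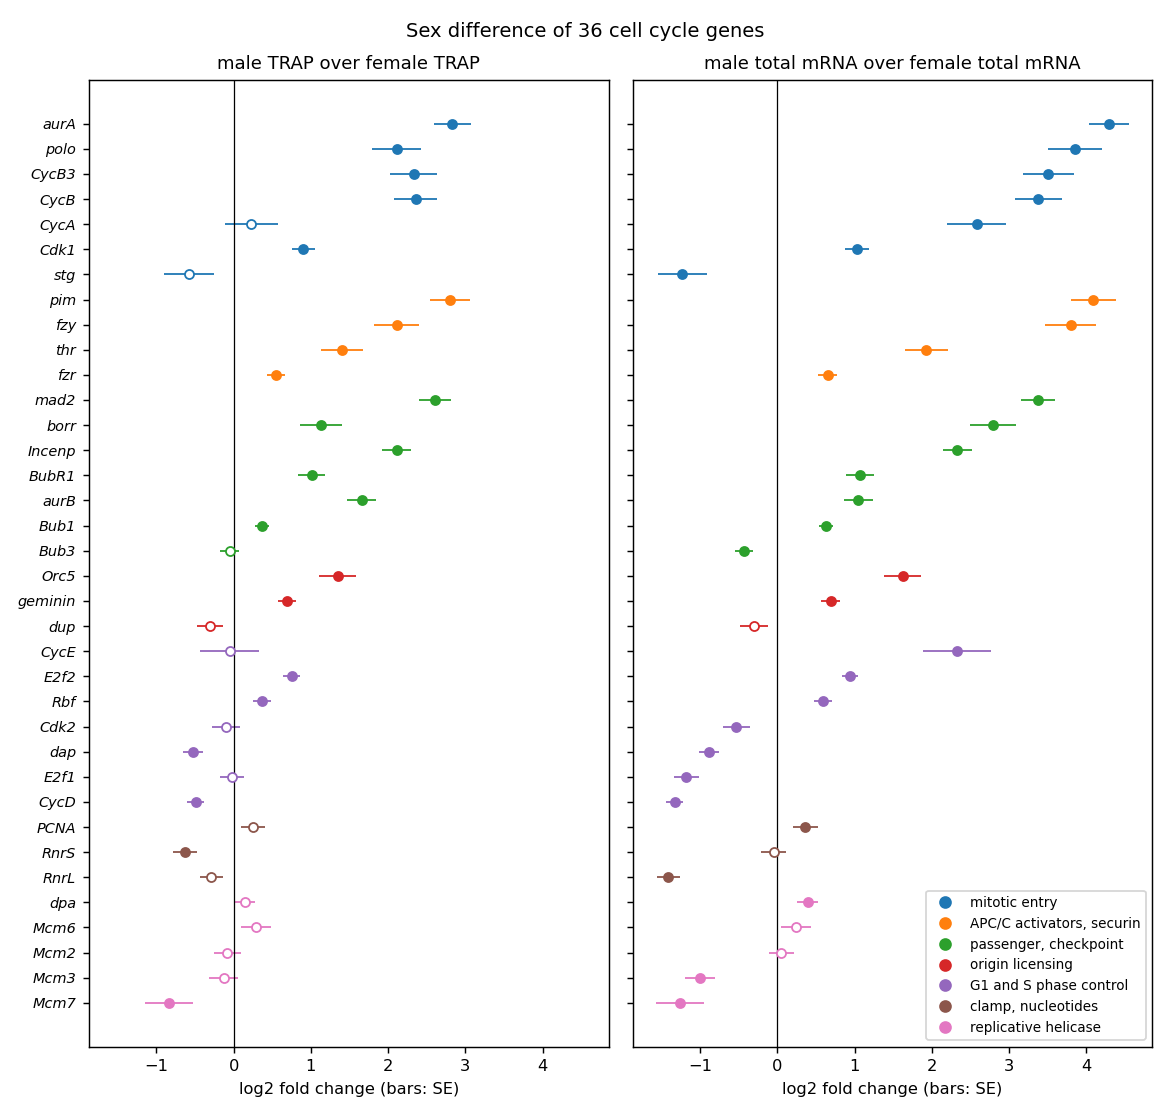
Log2 fold change (horizontal axis, bars are SE) of the 36 tested genes, male TRAP over female TRAP (left) and male total mRNA over female total mRNA (right), coloured by role; filled points passed an FDR of 0.05 and open points did not. Of the 18 mitotic entry, anaphase and checkpoint genes, 15 in TRAP and 16 in total mRNA are filled points right of 0; points of the other roles lie on both sides, with CycE (2.32), E2f2 (0.94) and Rbf (0.59) right of 0 in total mRNA.

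Genes of the replicative helicase went in both directions between the sexes. Among the 5 tested helicase genes 1 was higher and 2 were lower in male total mRNA, against 32.7% and 58% of all genes, with a median of 0.05 against -0.64. In TRAP none was higher and 1 was lower in males, against 32.9% and 37.2%, with a median of -0.08 against -0.15. Mcm7, a helicase subunit with 4 of 5 records overlapping a gene on the other strand, had 1.93, 2.16, 3.86, 2.45 and 2.03 RPM in male total mRNA, against 4.19, 4.06, 4.5 and 4.86 RPM in female total mRNA. In TRAP it had 2.06, 3, 5.22, 1.2 and 3.23 RPM in males, against 8.04, 4.41, 3.37 and 3.73 RPM in females. The total mRNA groups did not overlap (log2 difference of -1.26 ± 0.31, SE, FDR = 0.00111; -0.68 with FDR = 0.0519 under RLE), while the TRAP groups did, and the TRAP difference of -0.84 ± 0.31 (SE) was -0.50 (FDR = 0.14) without female TRAP replicate 2. Mcm3 had 2.04, 1.71, 2.47, 1.86 and 2.01 RPM in male total mRNA, against 2.69, 3.36, 2.61 and 3.42 RPM in female total mRNA, a difference of -1.0 ± 0.19 (SE). In TRAP Mcm3 had 1.9, 2.69, 3.45, 1.51 and 2.51 RPM in males, against 3, 2.38, 1.8 and 2.68 RPM in females, and these overlapped. dpa, the fly Mcm4, had 8.91, 9.24, 13.6, 10.1 and 9.38 RPM in male total mRNA, against 5.75, 5.5, 5.9 and 6.16 RPM in female total mRNA, and was higher by 0.39 ± 0.13 (SE). For Mcm2, Mcm6 and dpa every male total mRNA library was above every female one, with ratios of mean RPM of 1.37, 1.58 and 1.76. Mcm2 and Mcm6 did not pass the test in either fraction with TMM, though with RLE size factors they were higher in male total mRNA, by 0.63 and 0.83. Among the origin genes, Orc5, which passed the filter through males alone, was higher in males by 1.62 ± 0.24 in total mRNA and 1.35 ± 0.24 in TRAP, and geminin by 0.69 ± 0.12 in each, while dup did not pass in either.

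RnrL, the large subunit of ribonucleotide reductase, which makes deoxyribonucleotides, was the member lowest in male total mRNA relative to females. It had 4, 4.33, 3.26, 3.91 and 4.19 RPM in male total mRNA, against 7.6, 8.44, 7.59 and 7.87 RPM in female total mRNA, without overlap, a difference of -1.41 ± 0.15 (SE, FDR = 9.38e-08). The small subunit gene RnrS had 4.32, 6.6, 9.8, 5.62 and 6.11 RPM in male TRAP, against 10.4, 8.82, 9.38 and 8.93 RPM in female TRAP. That is a difference of -0.63 ± 0.15 (SE, FDR = 0.00109), with male replicate 3 inside the female range, and RnrS in total mRNA differed by -0.05 ± 0.16. The replication clamp PCNA was higher by 0.36 ± 0.16 in male total mRNA (FDR = 0.0425).

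Genes that control entry to S phase went in both directions. CycD, the G1 cyclin that acts with Cdk4, had 9.21, 9.37, 9.49, 10.2 and 10.4 RPM in male total mRNA, against 16.5, 18.1, 19.6 and 19.6 RPM in female total mRNA, a difference of -1.33 ± 0.11 (SE, FDR = 3.22e-09). The Cyclin E and Cdk2 inhibitor dap had 13.9, 18.4, 22.2, 15.3 and 16.7 RPM in male TRAP, against 30.9, 21, 19.5 and 21.4 RPM in female TRAP, a difference of -0.52 ± 0.13 (SE) with partly overlapping values. E2f1 and stg were also lower in male total mRNA, with differences of -1.18 ± 0.16 and -1.23 ± 0.32, stg having FDR = 0.0914 under RLE. In the test of single exon records the differences were smaller. None of the 4 stg records was called (-0.40 to -0.23), and 2 of 10 E2f1 records were called lower (-0.45 to 0.20). Cdk2 (-0.53 ± 0.18) turned to 0.05 under RLE. The repressors E2f2 (0.94 ± 0.11 in total mRNA, 0.75 ± 0.11 in TRAP) and Rbf (0.59 ± 0.12 and 0.37 ± 0.12), the fly retinoblastoma protein, were higher in males. CycE was higher by 2.32 ± 0.44 in male total mRNA, against -0.05 ± 0.38 in TRAP, and without female TRAP replicate 2 the TRAP difference of CycE was 0.88 (FDR = 0.000875).

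Within males, 10 of the 18 mitotic members were lower in TRAP than in total mRNA, 1 (stg) was higher, and CycA, Cdk1, aurB, BubR1, Bub3, fzr and thr did not pass; with RLE size factors 15 were lower. Of the 12 that passed the filter in every group 4 were lower, against 24.7% of all such genes, and with RLE size factors 9 were, against 43.8%. The median of all genes was -0.31 with RLE size factors, against 0.00 with TMM. Of the 36 tested genes, 17 were lower in male TRAP, against 28.6% of all genes, and 5 were higher, against 37% of all genes, with a median of -0.46 against 0.00. aurA, whose values stand above, was lowest at -1.64 ± 0.19 (SE, FDR = 1.5e-06). borr, encoding Borealin of the passenger complex, had 4.83, 5.23, 7.04, 3.98 and 5.49 RPM in male TRAP, against 11.9, 13.8, 14.1, 13.4 and 14.8 RPM in male total mRNA (-1.26 ± 0.24, SE, FDR = 0.000194). polo followed at -1.08 ± 0.28, and every TRAP library was below every total mRNA library for aurA, borr and polo. Relative to male total mRNA, 8 of the 19 tested male germline markers were lower in male TRAP and none was higher.

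The genes higher in male TRAP were stg, E2f1, RnrL, CycD and Cdk2, of which Cdk2 did not pass under RLE. stg, which triggers mitosis and whose transcription times divisions in the embryo, had 58.8, 34.4, 41.3, 27.3 and 44.2 RPM in male TRAP, against 32.1, 11, 10.3, 10.8 and 16.1 RPM in male total mRNA. Only total mRNA replicate 1 of stg reached into the TRAP range, and the difference was 1.43 ± 0.31 (SE, FDR = 0.000641). E2f1, the activating E2F factor, had 245, 310, 316, 288 and 354 RPM in male TRAP, against 163, 163, 146, 168 and 220 RPM in male total mRNA, without overlap (0.91 ± 0.15, SE). RnrL had 4.73, 6.02, 6.05, 4.7 and 7.96 RPM in male TRAP, against 3.26 to 4.33 RPM in male total mRNA, also without overlap (0.68 ± 0.14, SE). CycD was higher by 0.57 ± 0.10 and Cdk2 by 0.46 ± 0.17 (0.14, FDR = 0.435 under RLE).

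In females 11 of the 36 tested genes were lower in TRAP than in total mRNA, or 30.6%, against 35.9% of all genes, and 3 were higher, or 8.33%, against 17.5%; the median was -0.18 for members and -0.27 for all genes. With RLE size factors 4 were lower and 4 higher, a higher share of 50% against 21.4%, and the median of all genes rose from -0.27 to -0.14. A fit to the compared libraries alone called 3 lower and 4 higher, both with and without the lysate number as a replicate block. Without female TRAP replicate 4 or 5 there were 6 lower, and without female total mRNA replicate 5 there were 7. aurB, the kinase of the passenger complex, had 3.51, 3.52, 3.19 and 3.84 RPM in female TRAP, against 5.21, 6.48, 4.59 and 5.8 RPM in female total mRNA (-0.88 ± 0.21, SE, FDR = 0.00182). geminin had 11, 9.69, 6.87 and 9.45 RPM in female TRAP, against 12.5, 12.5, 15.7 and 15.9 RPM in female total mRNA (-0.84 ± 0.13, SE), and Mcm6 had 5.38, 4.76, 2.92 and 3.57 RPM against 5.39, 5.69, 5.95 and 5.28 RPM (-0.65 ± 0.20, SE). aurB and geminin did not overlap, and Mcm6 did by 1 library; the Mcm6 call was lost in the fit to the compared libraries alone (FDR = 0.0763, and 0.0522 with the lysate as a replicate block).

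CycE, CycA and RnrS passed the test as higher in female TRAP. The mitotic phosphatase gene stg had 81, 49.1, 50.1 and 53.4 RPM in female TRAP, against 31.8, 32.1, 25.9 and 24.9 RPM in female total mRNA, without overlap. Its log2 difference of 0.79 ± 0.34 (SE) missed the threshold (FDR = 0.0582), passed with RLE size factors (0.93, FDR = 0.0354) and was 0.60 (FDR = 0.17) without female TRAP replicate 2, while 4 of its 4 exon records were called higher (0.97 to 1.15). CycE had 42.6, 9.55, 6.15 and 11.2 RPM in female TRAP, against 2.99, 3.73, 3.87 and 2.33 RPM in female total mRNA, and 20.9, 16.7, 21.5, 13.9 and 15.8 RPM in male TRAP, against 20.4, 19.7, 24.8, 23.6 and 20.1 RPM in male total mRNA. CycA, which acts in S phase and at mitotic entry, had 91.3, 26.9, 17.3 and 23.4 RPM in female TRAP, against 10.6, 9.47, 9.87 and 10.7 RPM in female total mRNA. In males CycA had 63.6, 45.5, 53, 50.8 and 31.9 RPM in TRAP, against 80.3, 83.9, 80, 85.2 and 74.8 RPM in total mRNA. Every female TRAP library was above every female total mRNA library for both genes, and replicate 2 was several times the others. The female log2 differences were 2.18 ± 0.45 for CycE and 1.74 ± 0.38 for CycA (SE), and 1.24 (FDR = 0.000215) and 0.93 (FDR = 0.000782) without replicate 2. The 10 neuroblast and progenitor markers summed to 2290 to 3140 RPM in male TRAP and 568 to 900 RPM in male total mRNA, and to 1690 to 2620 RPM in female TRAP and 756 to 1270 RPM in female total mRNA. The genes pros, brat and grh made up nearly all of each sum, and the other 7 summed to 53.6 to 81.3 RPM in male TRAP and 17.2 to 24.5 RPM in male total mRNA, and to 63.2 to 110 RPM in female TRAP and 27.9 to 46 RPM in female total mRNA. Most of the sum of those 7 was klu, at 42.7 to 64.4 RPM in male TRAP and 44.9 to 60.8 RPM in female TRAP. The genes dpn, wor and l(1)sc were under 2 RPM in every library. Of the 10 markers, 7 were tested and 5 were higher in female TRAP, and 1 listed marker was at 0 throughout female total mRNA. The part of these markers in the result was not tested. RnrS had 10.4, 8.82, 9.38 and 8.93 RPM in female TRAP, against 4.13, 4.1, 4.74 and 5.07 RPM in female total mRNA, without overlap (0.83 ± 0.16, SE, FDR = 0.000385).

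The sex difference in enrichment was tested as the TRAP over total mRNA difference in males minus that in females. It was lower in males for 11 of the 36 genes, against 6.27% of all genes, and higher for 4, against 42%, with medians of -0.16 for members and 0.49 for all genes. Of the 29 that passed the filter in every group 5 were lower, against 4.8% of all such genes, and 4 higher, against 54.5%. With RLE size factors 15 were lower and 2 higher, moving the higher share from 26.7% to 11.8%, while the median of all genes fell from 0.49 to 0.04. CycE and CycA differed most, by -2.37 ± 0.57 and -2.35 ± 0.50 (SE), then polo (-1.74 ± 0.43), fzy (-1.69 ± 0.42), borr (-1.66 ± 0.40), aurA (-1.46 ± 0.34), pim (-1.29 ± 0.39), CycB3 (-1.18 ± 0.44), CycB (-1.02 ± 0.37), mad2 (-0.78 ± 0.30) and RnrS (-0.58 ± 0.22). Without female TRAP replicate 2, CycB, CycB3, mad2 and RnrS no longer passed in the males against females test, and 7 genes were lower and 7 higher, with CycE at -1.44 and CycA at -1.56. Without female total mRNA replicate 2, 7 were lower and 4 higher. E2f1 (1.17 ± 0.22), RnrL (1.12 ± 0.21), Mcm3 (0.86 ± 0.27) and CycD (0.85 ± 0.15) were relatively more enriched in males, of which Mcm3 (0.41) and CycD (0.38) did not pass under RLE. E2f1 in females had 319, 241, 336 and 256 RPM in TRAP, against 326, 334, 268 and 238 RPM in total mRNA, so its female fractions overlapped.

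**Figure D3:**
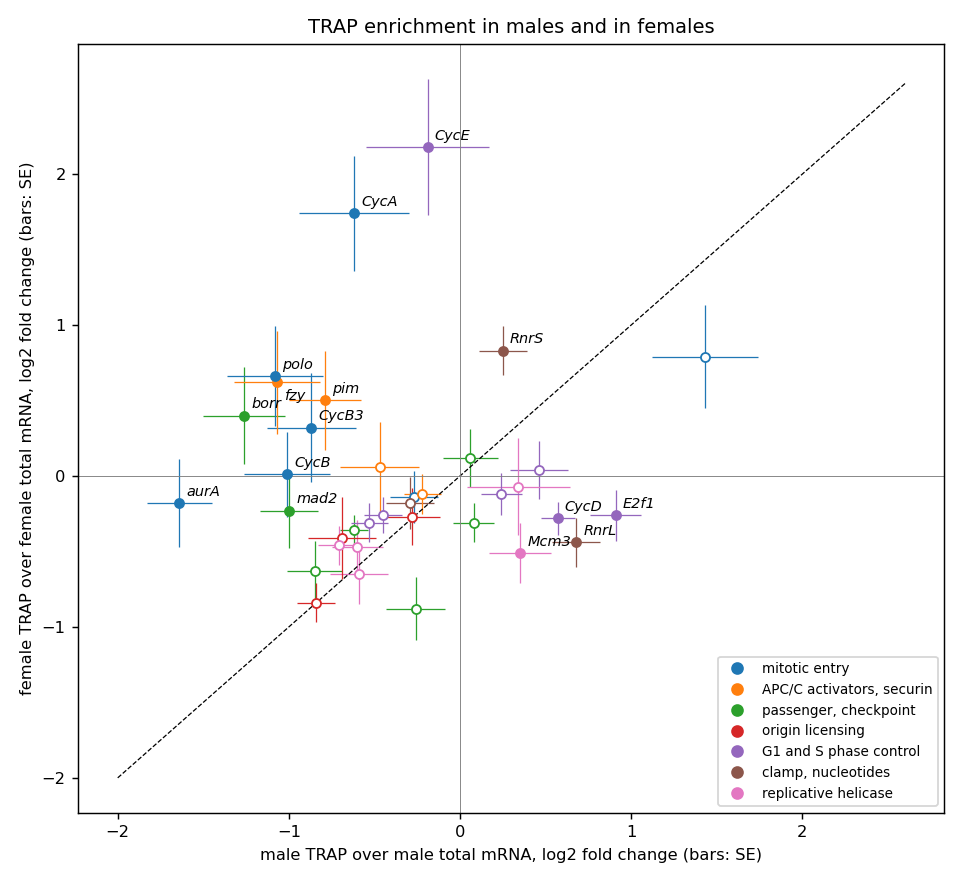
TRAP over total mRNA log2 fold change in males (horizontal axis) and in females (vertical axis) for the 36 tested genes, bars are SE; colours give the role, filled and named points passed the test of the sex difference, and the dashed line marks equal enrichment. CycE and CycA lie farthest above the line, and E2f1, RnrL, Mcm3 and CycD lie below it.

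Exon records were also tested singly with the edgeR exact test (FDR under 0.2), a gene being called when any record passed. In male TRAP against male total mRNA 31 members had a tested record, 22 had a record lower, against 50% of all genes, and 6 had one higher, against 43.5%. In female TRAP against female total mRNA 9 of 20 had a record lower, against 48.4%, and 5 had one higher, against 38.4%. Between male and female TRAP 16 of 24 had a record higher, against 31.7%, and 2 lower, against 25.6%, and between the total mRNA groups 17 of 22 had a record higher, against 47.3%, and 4 lower, against 46.2%. Without female total mRNA replicate 2 or 3, 26 had a record higher in male total mRNA. CycE had records called in both directions in male TRAP (-0.56 to 0.25), and E2f1 in female TRAP (-0.45 to 0.52). Between the total mRNA groups the median of all records was -0.02, against -0.64 for all genes in the gene fit. The records of CycD (-0.49) and RnrL (-0.56) were called lower there, by less than in the gene fit. Those of RnrS (0.65) and dup (0.51) were called higher, though these genes did not pass in the gene fit.

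Exon usage within a gene differed in 8 of 18 tested members between male TRAP and male total mRNA, against 31.2% of all genes, and in none of 11 in females, against 14.8%, none of 15 between male and female TRAP, against 3.86%, and 2 of 12 (E2f2 and Rbf) between the total mRNA groups, against 24.9% (edgeR diffSpliceDGE, Simes FDR under 0.05; in the comparisons with none, 0 members had an unadjusted p under 0.05). Without male total mRNA replicate 2, 3 or 5 the 8 became 4, without male TRAP replicate 5 they became 5, and without any 1 of the female total mRNA libraries the 2 became 9 or 10. In that last case records can again pass the filter through male libraries alone, so the 9 or 10 are a description. The 8 were CycA, CycB, CycE, E2f1, E2f2, Incenp, fzr and polo. In 7 of them the record nearest the 3′ end had a higher log2 difference than the record nearest the 5′ end. For polo the 3′ record lay at -0.60 and the 5′ record at -1.63, for CycB at -0.55 and -1.66, for Incenp at -0.36 and -1.61, for fzr at -0.03 and -0.96 and for E2f2 at 0.13 and -0.88. In E2f1 the order was the other way, 0.67 at the 3′ end and 1.61 at the 5′ end. Of the 13 members with separate 3′ and 5′ records, 10 had the 3′ record higher, with a median difference of 0.63, and 73.8% of 5410 genes did, with a median of 0.39. Between male and female total mRNA 1 of 6 members had the 3′ record higher, against 14.2% of 4275 genes.

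**Figure D4:**
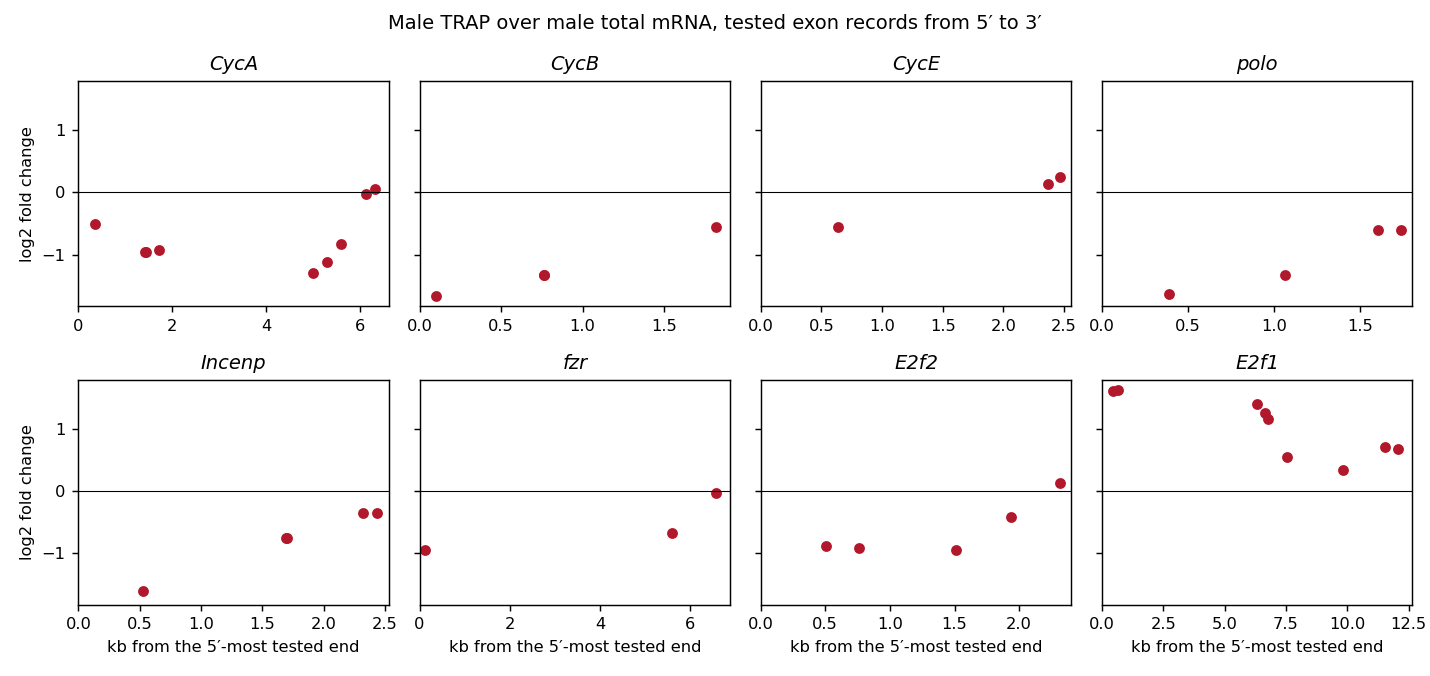
Log2 fold change, male TRAP over male total mRNA, of each tested exon record against its distance in kb from the 5′-most tested end, for the 8 members called by the exon usage test. The records of polo, CycB, Incenp, fzr, E2f2, CycE and CycA nearest the 3′ end lie higher than those at the 5′ end, and those of E2f1 lie lower.

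Other cell cycle genes are given by listed role, and differences between roles were not tested. Of 119 listed genes 113 were tested. Of all genes, 32.7% were higher and 58% lower in male total mRNA, 32.9% higher and 37.2% lower in male TRAP than female TRAP, 28.6% lower in male TRAP than male total mRNA and 35.9% lower in female TRAP than female total mRNA. Kinetochore, spindle and cytokinesis genes were higher in male total mRNA in 30 of 37 cases and lower in 4, with a median of 1.52, and higher in male TRAP than female TRAP in 27 and lower in 3, with a median of 0.96. Further replication genes were higher in 14 and lower in 14 of 31 in total mRNA (median 0.18), and the anaphase promoting complex, cohesin and condensin genes were higher in 9 and lower in 13 of 23 (median -0.32). The G1, G2 and checkpoint control genes were higher in 5 and lower in 13 of 22 (median -0.41). In male TRAP against male total mRNA 24 of the 37 kinetochore and spindle genes were lower and 2 higher (median -0.56), and in females 6 were lower and 2 higher (median -0.17). The medians of all genes given above apply to each of these counts.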

How the data were processed

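The authors sequenced single-end libraries and, per the labels, aligned them to dm6 with STAR 2.7.2a and counted reads per exon record with featureCounts; each deposited table holds these raw counts, not normalized. The annotation release and strand setting are not given in the sources used here, so 28 member records that overlap a gene on the opposite strand are uncertain. The authors' series table was not used. Gene counts were sums over 69946 non-overlapping records. Tests used R 4.3.3 and edgeR 4.0.16 (exact test per record, over 2 CPM in 60% of libraries; quasi-likelihood F test per gene; diffSpliceDGE), Benjamini-Hochberg adjusted, with DESeq2 1.42.0 as an alternative; the edgeR tests were checked on simulated data. Members and lists were chosen with earlier results of these data known. Members with the 3 largest called changes in each direction of each comparison are given in every library. Same-numbered TRAP and total mRNA libraries share a lysate and deviated together (r of 0.27 to 0.552 in males and 0.182 to 0.8 in females). Replicates are separate samples by the labels, and p-values measure the spread between them. Counting error is part of that spread, and low members had few reads in spite of the library totals, such as 16 to 30 for pim in female total mRNA.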

Additional observations from a re-analysis of the deposited data

Results flagged for a closer look

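Several single libraries lay far from the rest of their group; among 72 groups of values checked, chance would give about 1 in 20. Female TRAP replicate 2 was high in CycA (91.3 RPM), CycE (42.6 RPM), stg (81.0 RPM), dap (30.9 RPM) and borr (4.57 RPM). Male total mRNA replicate 1 was high in stg (32.1 RPM) and aurB (18.2 RPM), male total mRNA replicate 3 in Mcm7 (3.86 RPM) and female total mRNA replicate 3 in polo (9.09 RPM).

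TRAP enrichment differed between males and females by the test of the difference itself in 15 members. The male minus female log2 value was positive in Mcm3 (0.86), RnrL (1.12), CycD (0.85) and E2f1 (1.17). It was negative in CycE (-2.37), CycA (-2.35), polo (-1.74), fzy (-1.69), borr (-1.66), aurA (-1.46), pim (-1.29), CycB3 (-1.18), CycB (-1.02), mad2 (-0.78) and RnrS (-0.58). Of all genes 6.27% were lower and 42% higher in males. Of these members borr, aurA, pim, CycB3 and mad2 passed the filter through male libraries alone, and fzy did not pass it in female total mRNA. Their values are a description. Without female TRAP replicate 2, 7 members were lower and 7 higher.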

How the results depend on the processing

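Counts of members called are given where they moved by over 1.5 times. In the exon record tests, a minimum absolute log2 change of 1 left 2 higher and 6 lower in male TRAP against male total mRNA, 3 higher and 0 lower in female TRAP against female total mRNA, 9 higher and 0 lower in male against female TRAP, and 0 lower in male against female total mRNA. Without the filter, females had 17 higher and 18 lower in TRAP, male TRAP had 26 higher than female TRAP, and male total mRNA had 34 higher and 7 lower. An FDR under 0.05 left 4 lower in female TRAP against total mRNA and 0 lower in male against female TRAP.

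In the gene tests, RLE size factors gave 4 lower in female TRAP against total mRNA, 5 lower in male against female total mRNA and 2 more enriched in males. DESeq2 gave 6 higher and 5 lower in female TRAP and 19 less enriched in males. A minimum change of 1 left 1 higher and 6 lower in male TRAP against total mRNA, 0 lower in female TRAP against total mRNA, 0 lower in male against female TRAP, and 5 lower in male total mRNA. Using only the compared libraries gave 3 lower in female TRAP against total mRNA.

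With the lysate as a replicate block, also fitted to the compared libraries alone, 3 were lower in female TRAP against total mRNA, as without the block; no other lysate-paired count moved by over 1.5 times. Same-numbered male and female libraries share only a number (r of -0.313 to 0.092 in TRAP and -0.29 to 0.001 in total mRNA), and libraries whose number has no partner add nothing to that block. With it, 1 was lower in male against female TRAP in the genes and 1 in the records, and 4 were lower in male total mRNA.

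Leaving out 1 library gave the following ranges. Members lower in female TRAP against total mRNA numbered 6 to 14 (6 without female TRAP replicate 4 or 5, 7 without female total mRNA replicate 5), and those higher 3 to 5 (5 without female TRAP replicate 4). In male against female TRAP 2 to 5 were lower (2 without male TRAP replicate 6), and in the records 1 to 3 (1 without male TRAP replicate 2, 5 or 6 or female TRAP replicate 2). Members less enriched in males numbered 7 to 12 (7 without female TRAP or female total mRNA replicate 2), and those more enriched 4 to 7 (7 without female TRAP replicate 2). Record calls higher in male total mRNA were 17 to 26 (26 without female total mRNA replicate 2 or 3). Exon usage calls were 4 to 8 in male TRAP against total mRNA (4 without male total mRNA replicate 2, 3 or 5, and 5 without male TRAP replicate 5) and 2 to 10 between the total mRNA groups (9 or 10 without any 1 female library). With 1 female library left out, records can pass the filter through male libraries alone, so these larger record and usage counts between the total mRNA groups are a description.

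Chosen after seeing the data, leaving out male TRAP replicate 1 and female TRAP replicate 2 together gave 7 more enriched in males. Leaving out female total mRNA replicates 2, 3 and 4, with the lone library assumed to vary like the other groups, gave 1 lower in female TRAP, and 2 more and 2 less enriched in males. Of the fold changes of the members given in every library, 518 kept direction and threshold over these alternatives, 22 lost the threshold and 0 reversed. Those were picked as the 3 largest called changes in each direction of each comparison, so the count does not cover smaller changes. Over all members, 2 called changes (Bub3 and Cdk2) reversed sign with RLE size factors in male against female total mRNA. The causes of these shifts were not tested. Orc1, Orc2, Orc6 and Mcm5 lay under the minimum level and were not tested.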
